A study of Mus musculus with 12 samples.

Results

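The genes described here are 41 mouse genes of DNA replication and the passage from G1 into S phase, followed across 12 arrays of p53-deficient neural cells with and without an oncogenic HRas. They were chosen by name as genes of this process, and each was read from 1 probe set, the brightest on average of those assigned to its symbol alone. All 41 lay above the low-signal limit in at least 1 group and were tested, of 12835 genes tested in all. They fall into 8 roles: 6 subunits of the MCM helicase, 6 genes of origin recognition and licensing, 4 of helicase activation, 6 of the sliding clamp and its loader, 7 of the polymerases and primase, 4 of single-strand binding and lagging-strand joining, 4 of nucleotide supply, and 4 G1/S cyclins and E2F factors.

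Replication starts at origins bound by the origin recognition complex, to which Cdc6 and Cdt1 bring the MCM helicase in G1. In S phase Cdc45, the GINS complex and Mcm10 switch the helicase on, primase and polymerase alpha lay down primers, and polymerases delta and epsilon extend them on the Pcna clamp. Cyclin E with its kinase and the E2F transcription factors drive entry into S phase, and many genes of this process are known E2F targets, so their transcripts are commonly read as a sign of cycling cells.

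HRasL61, an activated HRas, was put into cells of 3 kinds to give NSCL61, OPCL61 and ASTL61, whose parents were NSC (neural stem cells), OPC (oligodendrocyte precursor cells) and AST (astrocytes), with 2 arrays in each of the 6 groups. All groups lack p53 and come from the telencephalon of BL6 mice at embryonic day 14.5. NSC grew as floating spheres without serum, AST were induced from NSC with 10% fetal calf serum over 3 weeks, and OPC were induced with PDGFAA at 10 ng/ml, bFGF at 2 ng/ml and 0.25% serum and then immunopanned. The lines were made by electroporation of pCMS-EGFP-HRasL61 with pBabe-neo, growth in neomycin at 0.5 mg/ml and sorting for GFP. Those steps are not given for the parents, so HRasL61 and the selection cannot be told apart here, and neither can cell type and culture medium. Serum and growth factors are not recorded for the lines, so HRasL61 and a change of medium cannot be told apart either. The labels do not say whether the 2 samples of a group were separate cultures, so p-values measure only the spread between these samples.

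Several arrays went against their labels or apart from their group. On the NSC arrays the stem cell gene Sox2 gave 4.41 and 6.79 on the log2 scale, against 10.07 to 11.99 on the arrays of the other groups, and the mean log2 signal of 7 neural stem cell markers was 5.28 and 5.47. The mean of 7 fibroblast and pericyte markers was 11.27 and 10.87 in NSC, between 8.46 and 9.48 on the ASTL61 and AST arrays, and between 4.54 and 4.81 on the NSCL61, OPCL61 and OPC arrays. The mean of 5 astrocyte markers was 5.56 on both AST arrays but 9.09 and 8.82 on the OPC arrays. Gfap averaged 5.57 ± 0.22 in AST and 6.90 ± 1.17 in OPC (SD, n = 2 each). The mean of 5 oligodendrocyte precursor markers was 10.39 and 10.60 in OPC and 6.38 and 6.29 in NSC. Of these, Olig1 averaged 13.95 ± 0.13 in OPC. Sox10 averaged 6.44 in OPC and 6.17 in NSC, Pdgfra 11.57 in OPC and 10.64 in NSC, and Cspg4 8.26 in OPC and 8.03 in NSC. Of 5 microglia markers, 4 lay below the low-signal limit on the group means of all groups. Over all genes, ASTL61 replicate 1 was closer to AST replicate 1 (SD of the differences 0.23) and AST replicate 2 (0.33) than to ASTL61 replicate 2 (0.37). Array medians lay between 5.157 and 5.211. The 5′ control probes for 18S ribosomal RNA gave 11.67 to 12.59 on the second arrays of NSCL61, NSC and OPC and 7.91 to 10.29 on the other 9 arrays.

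Promoters of 33 of the 41 genes were matched in RefSeq's table for GRCm38.p6, giving 39 windows of 250 bases before and 50 bases after a start. An E2F word (TTTCCCGC, TTTCGCGC, TTTGCCGC or TTTGGCGC on either strand) lay in 13 of the 39 windows, or 33.3%, against 2.26% of 32851 windows of all genes. The CCAAT word was in 59% of the genes' windows and in 37.4% of all windows, GGGCGG in 66.7% and 35.7%, and the cell cycle homology words TTTGAA or TTCGAA, of genes that peak in G2 and M, in 15.4% and 19.2%, all read on both strands with overlaps between words allowed. The 13 genes with an E2F word were Cdc6, Cdt1, E2f2, Lig1, Mcm3, Mcm5, Mcm6, Mcm7, Orc1, Pola1, Pold1, Pole2 and Rfc3. A match is a description of the letters and not a binding site. Sequences follow for Cdc6, Mcm7 and Orc1, which were higher in a line than in its parent, each with its E2F word in capitals, and then for Rpa2, the gene that was lower in OPCL61, with its CCAAT words, read as ATTGG on this strand, in capitals. Each is the 250 bases before the start, 5′ to 3′ on the gene's strand. Cdt1, also higher in NSCL61, is not shown because its E2F word does not lie wholly within those 250 bases.
Cdc6, chr11:98907901-98908150, plus strand: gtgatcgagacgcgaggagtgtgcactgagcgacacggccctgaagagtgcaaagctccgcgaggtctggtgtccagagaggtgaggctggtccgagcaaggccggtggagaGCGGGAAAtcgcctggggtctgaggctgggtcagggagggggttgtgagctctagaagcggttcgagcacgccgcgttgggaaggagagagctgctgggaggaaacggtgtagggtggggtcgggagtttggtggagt
Mcm7, chr5:138171884-138172133, minus strand: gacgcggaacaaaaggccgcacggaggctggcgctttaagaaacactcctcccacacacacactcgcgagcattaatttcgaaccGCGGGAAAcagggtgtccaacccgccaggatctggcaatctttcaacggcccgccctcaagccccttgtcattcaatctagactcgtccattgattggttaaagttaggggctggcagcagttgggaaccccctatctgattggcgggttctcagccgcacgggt
Orc1, chr4:108579204-108579453, plus strand: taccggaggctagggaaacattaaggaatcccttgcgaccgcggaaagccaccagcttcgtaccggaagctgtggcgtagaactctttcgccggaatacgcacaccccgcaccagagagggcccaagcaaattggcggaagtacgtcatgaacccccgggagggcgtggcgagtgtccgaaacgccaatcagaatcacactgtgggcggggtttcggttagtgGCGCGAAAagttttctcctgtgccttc
Rpa2, chr4:132768110-132768359, plus strand: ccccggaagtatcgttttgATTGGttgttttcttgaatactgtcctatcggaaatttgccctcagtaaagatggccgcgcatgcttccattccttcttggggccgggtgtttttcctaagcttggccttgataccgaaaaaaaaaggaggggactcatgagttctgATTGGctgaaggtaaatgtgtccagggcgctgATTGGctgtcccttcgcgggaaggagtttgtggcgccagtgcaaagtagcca
The E2F words of Cdc6, Mcm7 and Orc1 begin at positions −138, −165 and −27 from the start. No E2F word was found in the windows of Fen1, Orc2, Orc6, Rrm2, Ccne1, E2f1 or Mcm10, which were among the genes with the largest changes below.

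As a group the 41 genes separated the parents more than they separated the lines. After subtracting each gene's mean over the 12 arrays, the median over the 41 genes was −0.16 and −0.08 in NSCL61 and −0.52 and −0.55 in NSC. In OPCL61 it was 0.06 and 0.27, and in OPC 0.13 and −0.16. In ASTL61 it was 0.31 and −0.11, and in AST 0.44 and 0.41. NSC arrays were thus the lowest and AST arrays the highest, while OPCL61 and OPC arrays overlapped. In whole-culture RNA, fewer cycling cells and less of these transcripts per cell cannot be told apart.

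**Figure D1:**
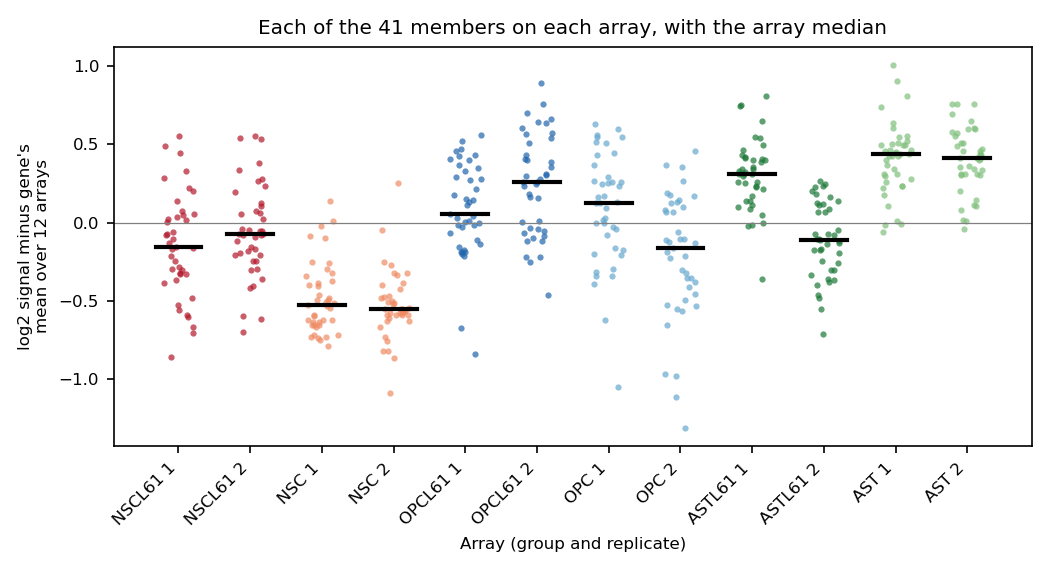
Each point is 1 of the 41 genes on 1 array, as log2 signal minus the gene's mean over the 12 arrays (y axis), with arrays on the x axis by group and replicate and a black bar at the array median. The NSC medians (−0.52 and −0.55) are the lowest and the AST medians (0.44 and 0.41) the highest, and the 2 ASTL61 arrays differ (0.31 and −0.11).

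In several groups the 2 arrays stood apart over these genes. OPC replicate 1 lay above replicate 2 in all 41 genes, by a median of 0.27, where 53% of all genes did so. ASTL61 replicate 1 lay above replicate 2 in 39 of 41, by a median of 0.48, against 50.9% of all genes. A list of mitosis and G2/M genes had the same order in 19 of 19 in both groups, by medians of 0.34 in OPC and 0.55 in ASTL61. In AST 18 of these 19 genes had replicate 1 above replicate 2 (median 0.20), though only 21 of the 41 did. In NSCL61 replicate 1 was above in 8 of the 41, by a median difference of −0.10, against 54.5% of all genes, and in OPCL61 in 11 of the 41 (median −0.16), against 49.9%. The 18S signal was 8.71 and 12.59 on the 2 OPC arrays, and its part in their difference was not tested. In NSC, where it was 7.91 and 12.13, the median replicate difference of the 41 genes was −0.01.

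**Figure D2:**
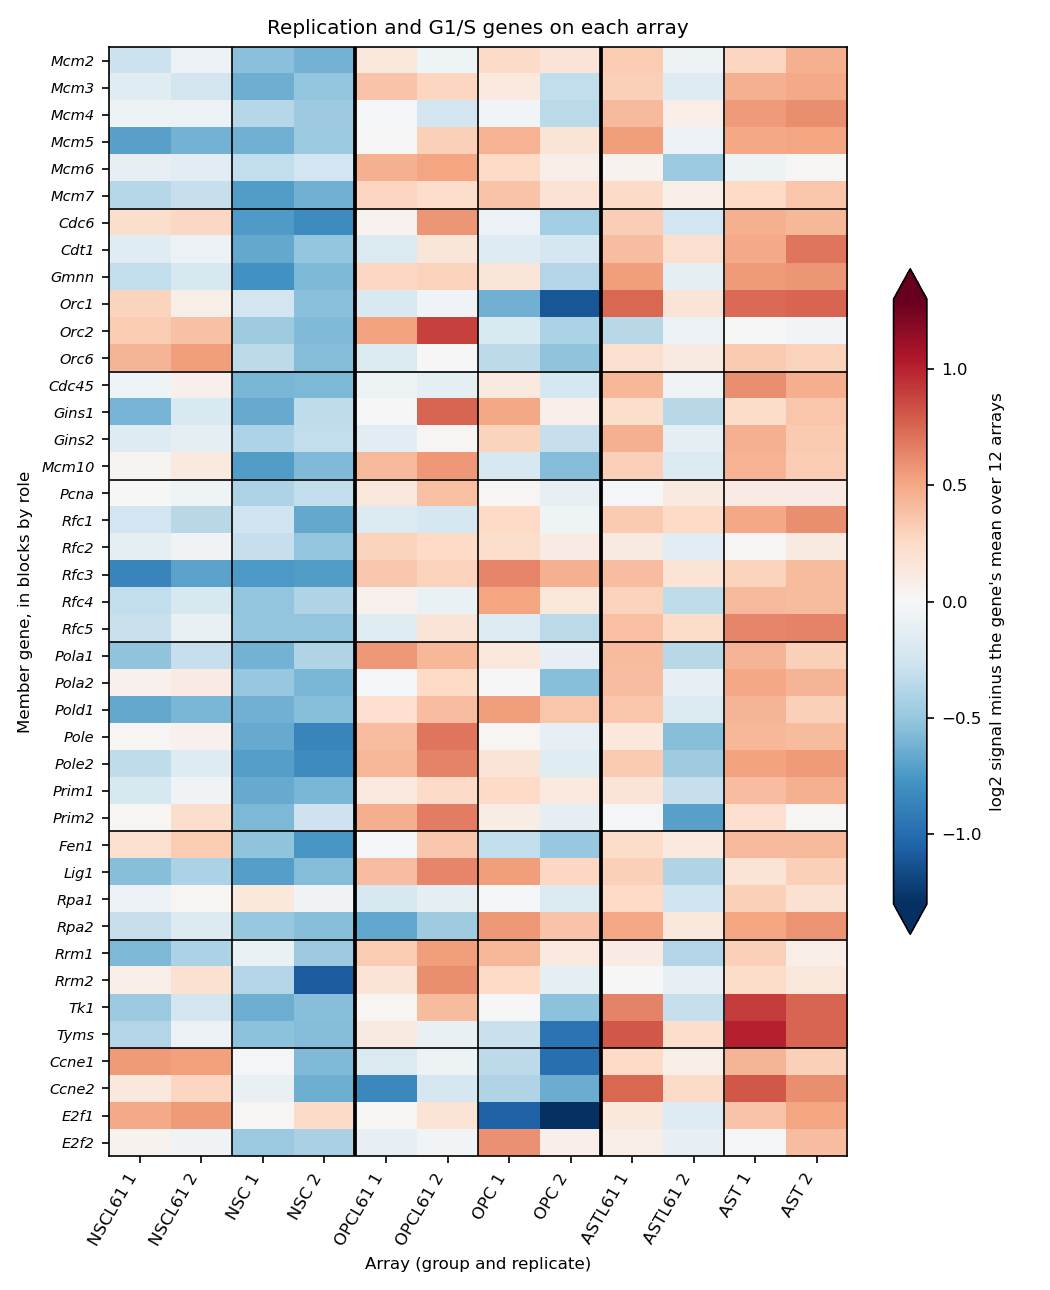
Log2 signal of the 41 genes minus each gene's mean over 12 arrays (colour, red above and blue below the mean), with genes down the page in blocks by role (MCM subunits, licensing, helicase activation, clamp and loader, polymerases and primase, single-strand binding and joining, nucleotide supply, G1/S cyclins and E2F factors) and arrays across. NSC columns are mostly blue and AST columns mostly red, and the E2f1 and Orc1 rows are darkest blue in OPC.

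Among the parents, the contrast of AST with NSC was the broadest. All 41 genes had both AST arrays above both NSC arrays, against 35.6% of all genes, and 35 of 41 rose at an adjusted p under 0.05 in limma's test across all genes, where 15.4% of all genes passed as higher, 15% as lower and 30.4% in either direction. The median change was 1.00 on the log2 scale, against 0.02 over all genes. The 6 that missed the threshold were Mcm6 (0.27), Prim2 (0.55), Rpa1 (0.21), Gins1 (0.79), Rrm1 (0.48) and E2f1 (0.31). None of the 41 fell.

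The rise ran through every role. All 6 licensing genes rose, by 1.25 ± 0.22 (SE) for Gmnn, the inhibitor of Cdt1, 1.23 ± 0.22 for Cdc6 and 1.18 ± 0.14 for Cdt1. Of the MCM subunits 5 of 6 rose, by 0.94 to 1.06. Mcm2 gave 10.84 and 11.02 in AST and 10.02 and 9.95 in NSC, with an adjusted p of 0.00205. In nucleotide supply, Tk1, the thymidine kinase of the salvage pathway, gave 10.93 and 10.78 in AST and 9.39 and 9.47 in NSC, a change of 1.42 ± 0.29 (adjusted p = 0.00603). Tyms, thymidylate synthase, is among the 35, but its mean of 4.61 in NSC lay below the low-signal limit of 5.183. By group mean it cleared the limit only in AST (6.04) and ASTL61. Its call is therefore tied to that limit, and no size is given for its change. The clamp and all 5 loader subunits rose, Pcna by 0.47 ± 0.12 and Rfc5 by 1.15 ± 0.14. On the AST arrays 6 of the 7 fibroblast and pericyte markers were lower than on the NSC arrays, with changes between −6.63 and −1.01. Their part in the contrast was not tested.

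OPC differed from NSC in a narrower set. In this contrast 21 of the 41 genes rose and 1 fell, 22 in all, where 27.2% of all genes passed as higher, 24.3% as lower and 51.5% in either direction. Both OPC arrays lay above both NSC arrays for 33 genes, against 39% of all genes. The median change was 0.51 against −0.01 over all genes. Rfc3, a clamp loader subunit, gave 10.12 and 9.95 in OPC and 8.74 and 8.76 in NSC, a change of 1.28 ± 0.12 (adjusted p = 2.1e-05). Lig1, the ligase that seals nicks on the lagging strand, rose by 1.05 ± 0.21, Pold1, the catalytic subunit of polymerase delta, by 1.04 ± 0.17, and Mcm7 by 0.96 ± 0.12. Of the 6 licensing genes only Cdt1 passed the test (0.39 ± 0.14), with Orc1 at −0.47 and Cdc6 at 0.51. E2f1, a transcription factor of S phase entry, went the other way: it gave 6.67 and 6.41 in OPC and 7.73 and 7.97 in NSC, a fall of 1.31 ± 0.15 (change −1.31, adjusted p = 7.63e-05). Its relative E2f2 rose by 0.79 ± 0.19. A second E2f2 probe set changed in the same direction. It averaged 4.85 over the 12 arrays, below the low-signal limit, so no size is given for its change. The count was 12 without NSC replicate 2 and 12 without OPC replicate 1.

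Set against AST, OPC had lower signals for a part of the genes, E2f1 and Orc1 furthest. Of the 41 genes 18 fell and none rose, where 25.6% of all genes passed as lower, 26.1% as higher and 51.7% in either direction. The share that passed in either direction was thus below the background, and all 18 were in 1 direction. Both OPC arrays lay below both AST arrays for 28 genes, against 43.2% of all genes. The median was −0.40 against −0.06 over all genes. E2f1 gave 6.67 and 6.41 in OPC and 8.09 and 8.23 in AST (−1.62 ± 0.15, adjusted p = 2.08e-05). Orc1, the largest subunit of the origin recognition complex, gave 6.66 and 6.17 in OPC and 8.02 and 8.04 in AST (−1.62 ± 0.22, adjusted p = 0.000228). A second Orc1 probe set, of lower signal, changed by only −0.44. Cyclin E genes were lower too, Ccne1 by a change of −1.04 ± 0.22 and Ccne2 of −1.23 ± 0.25. By role, 5 of 6 licensing genes and 3 of 4 cyclin and E2F genes fell, as did 2 of 4 helicase activation genes, 2 of 4 nucleotide supply genes, 2 of 6 MCM subunits, 2 of 6 clamp and loader genes, 1 of 4 single-strand binding and joining genes and 1 of 7 polymerase and primase genes. The MCM, clamp, joining and polymerase counts were near or below the 25.6% of all genes that passed as lower. No test compared the roles. Tyms, 1 of the 2 nucleotide supply genes that fell, gave 4.87 and 4.20 in OPC, below the low-signal limit. By group mean it cleared that limit only in AST and ASTL61, so its call is tied to the limit. Among the genes that did not pass were Rfc3 (0.19), Pold1 (0.08) and Rpa2 (−0.09). Without OPC replicate 2 the count was 11, and it was 11 without AST replicate 1.

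NSCL61 had higher signals than NSC for a part of the genes, led by origin licensing. In this comparison 14 of the 41 genes rose and none fell, where 20.7% of all genes passed as higher, 17.1% as lower and 37.8% in either direction. The median change was 0.37, against 0.04 over all genes, and 33 genes had both NSCL61 arrays above both NSC arrays, against 39.8% of all genes. The share that passed in either direction was thus near the background, and all 14 were in 1 direction.

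Cdc6 gave 9.73 and 9.77 in NSCL61 and 8.77 and 8.69 in NSC. The groups were about 1 log2 unit apart with little spread, and the change of 1.02 ± 0.22 had an adjusted p of 0.00591. Orc6, a subunit of the origin recognition complex, gave 10.62 and 10.72 in NSCL61 and 9.84 and 9.61 in NSC (0.95 ± 0.13, adjusted p = 0.000404). Orc2, another subunit, gave 9.65 and 9.70 in NSCL61 and 8.86 and 8.74 in NSC (0.87 ± 0.15, adjusted p = 0.00189), and its other 2 probe sets changed by 0.85 and 0.84. Cdt1 rose by 0.46 ± 0.14, while Orc1 (0.58 ± 0.22, adjusted p = 0.0642) and Gmnn (0.43 ± 0.22) missed the threshold.

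Outside licensing, Fen1, the flap endonuclease that trims Okazaki fragments, gave 11.25 and 11.38 in NSCL61 and 10.52 and 10.29 in NSC (0.91 ± 0.15, adjusted p = 0.00125). Rrm2, the regulated subunit of ribonucleotide reductase, gave 11.76 and 11.88 in NSCL61 and 11.30 and 10.60 in NSC (0.87 ± 0.23, adjusted p = 0.0159), so that the NSC arrays differed by nearly as much as the groups. Its partner subunit Rrm1 did not pass (−0.21 ± 0.20). Ccne1, cyclin E1, gave 8.94 and 8.92 in NSCL61 and 8.37 and 7.81 in NSC (0.84 ± 0.22, adjusted p = 0.0155), with NSC arrays also apart. Pole, the catalytic subunit of polymerase epsilon, gave 8.73 and 8.77 in NSCL61 and 8.06 and 7.85 in NSC (0.80 ± 0.21, adjusted p = 0.0135). Mcm10 gave 8.57 and 8.66 in NSCL61 and 7.81 and 7.96 in NSC (0.73 ± 0.18, adjusted p = 0.0104). Another Mcm10 probe set above the low-signal limit, of lower signal, changed by only 0.21.

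The other risers were smaller: Pola2 by 0.63, Cdc45 by 0.60, Prim1 by 0.49, Pcna by 0.35 and Mcm7 by 0.34. Pcna gave 12.89 and 12.83 in NSCL61 and 12.48 and 12.56 in NSC, with an adjusted p of 0.0422. Mcm2 gave 10.28 and 10.48 in NSCL61 and 10.02 and 9.95 in NSC (0.39 ± 0.15), which missed the threshold at an adjusted p of 0.0723, and E2f1 gave 8.21 and 8.27 in NSCL61 and 7.73 and 7.97 in NSC (0.39 ± 0.15, adjusted p = 0.069). By role, 4 of 6 licensing genes, 3 of 7 polymerase and primase genes and 2 of 4 helicase activation genes rose, against 1 in each of the other roles. The 5 genes with a change below 0 were Rrm1, Mcm5 (−0.11), Rpa1 (−0.08), Rfc3 (−0.04) and Pold1 (−0.04), and none of them passed the test.

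Leaving out 1 array leaves a group with 1, which lowers the power of the test. The median change then stayed between 0.36 and 0.42, while the count of genes that passed was lower each time. It was 5 without NSCL61 replicate 1, 4 without NSCL61 replicate 2, 7 without NSC replicate 1 and 5 without NSC replicate 2, and Cdc6, Orc2, Orc6 and Fen1 passed in all 4 of these fits. All 7 fibroblast and pericyte markers were lower in NSCL61 than in NSC, by changes between −8.46 and −3.02, and 5 of 7 neural stem cell markers were higher. Their part in the result was not tested.

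**Figure D3:**
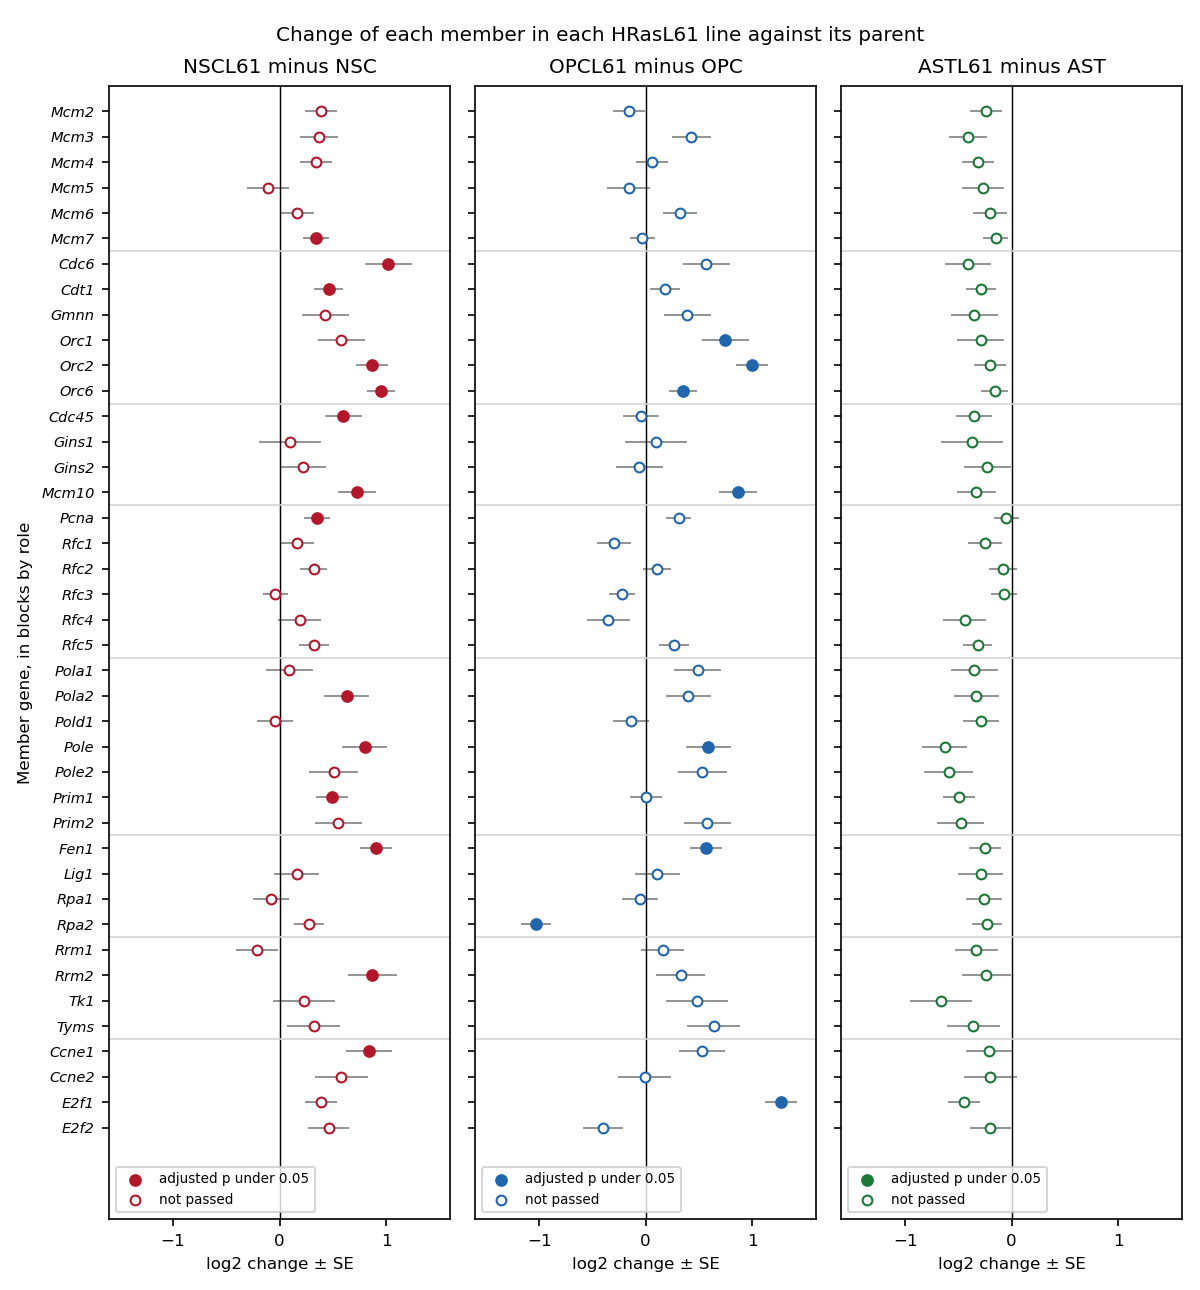
Log2 change ± SE of each of the 41 genes in NSCL61 minus NSC, OPCL61 minus OPC and ASTL61 minus AST (x axes), with genes down the page in blocks by role. Filled points passed at an adjusted p under 0.05: 14 in NSCL61, 8 in OPCL61 (7 higher and Rpa2 lower) and none in ASTL61, where all 41 points lie below 0.

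OPCL61 differed from OPC in fewer genes, with E2f1 and origin recognition subunits higher and Rpa2 lower. In this comparison 7 of the 41 genes rose and 1 fell, where 24.5% of all genes passed as higher, 23.9% as lower and 48.5% in either direction. The share of the 41 genes that passed was therefore below the background. Their median change was 0.27, against 0.05 over all genes, and it was 0.13 without OPCL61 replicate 2 and 0.13 without OPC replicate 2. Both OPCL61 arrays lay above both OPC arrays for 20 genes, against 40.2% of all genes, and below for 6, against 34.8%.

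E2f1 gave 7.73 and 7.90 in OPCL61 and 6.67 and 6.41 in OPC. No other group had E2f1 as low as OPC, and the rise of 1.27 ± 0.15 had an adjusted p of 0.000122; a second probe set changed by 1.12. E2f2 gave −0.40 ± 0.19 and did not pass. Its second probe set averaged 4.85 over the 12 arrays, below the low-signal limit, and no size is given for its change. Orc2 gave 9.84 and 10.21 in OPCL61 and 9.12 and 8.91 in OPC (1.00 ± 0.15, adjusted p = 0.000545), and its other probe sets changed by 0.39 and 0.86. Orc1 gave 7.08 and 7.24 in OPCL61 and 6.66 and 6.17 in OPC (0.75 ± 0.22, adjusted p = 0.0189), but its second probe set, of lower signal, changed by 0.05. Orc6 gave 9.99 and 10.18 in OPCL61 and 9.84 and 9.65 in OPC (0.35 ± 0.13, adjusted p = 0.0474), close to the threshold.

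Mcm10 gave 8.96 and 9.10 in OPCL61 and 8.33 and 7.97 in OPC (0.87 ± 0.18, adjusted p = 0.00287). Pole gave 9.11 and 9.41 in OPCL61 and 8.74 and 8.61 in OPC (0.59 ± 0.21, adjusted p = 0.0394), and Fen1 gave 11.03 and 11.40 in OPCL61 and 10.73 and 10.55 in OPC (0.57 ± 0.15, adjusted p = 0.0106). Both groups were separate for these 3 genes. None of the 6 MCM subunits and none of the 6 clamp and loader genes passed. Mcm2 gave 10.71 and 10.51 in OPCL61 and 10.81 and 10.73 in OPC (−0.16 ± 0.15, adjusted p = 0.436), Pcna gave 13.03 and 13.27 in OPCL61 and 12.90 and 12.78 in OPC (0.31 ± 0.12, adjusted p = 0.0501), and Cdc6 gave 9.55 and 10.08 in OPCL61 and 9.43 and 9.05 in OPC (0.57 ± 0.22, adjusted p = 0.0584).

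Rpa2, a subunit of the single-strand DNA binding complex RPA, was the only one of the 41 genes that fell in a line against its own parent. It gave 8.63 and 8.84 in OPCL61 and 9.86 and 9.67 in OPC, a change of −1.03 ± 0.14 (adjusted p = 0.00033), and its second probe set changed by −0.91. Its signal on the OPCL61 arrays overlapped that on the NSC arrays (8.81 and 8.75). Rpa1, which encodes the large subunit of the same complex, gave −0.05 ± 0.17. E2f1, Rpa2, Orc2 and Mcm10 passed in every fit without 1 array, whereas the count was 4 without OPCL61 replicate 2 and 5 without OPC replicate 2.

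Both NSCL61 and OPCL61 were higher than their parents in Mcm10, Orc2, Orc6, Pole and Fen1, which are 35.7% of the 14 genes higher in NSCL61 and 71.4% of the 7 higher in OPCL61. Over all genes, 1218 were higher in both, 45.8% of those higher in NSCL61 and 38.7% of those higher in OPCL61. The 2 comparisons share no arrays, but all 12 arrays enter the estimate of spread.

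**Figure D4:**
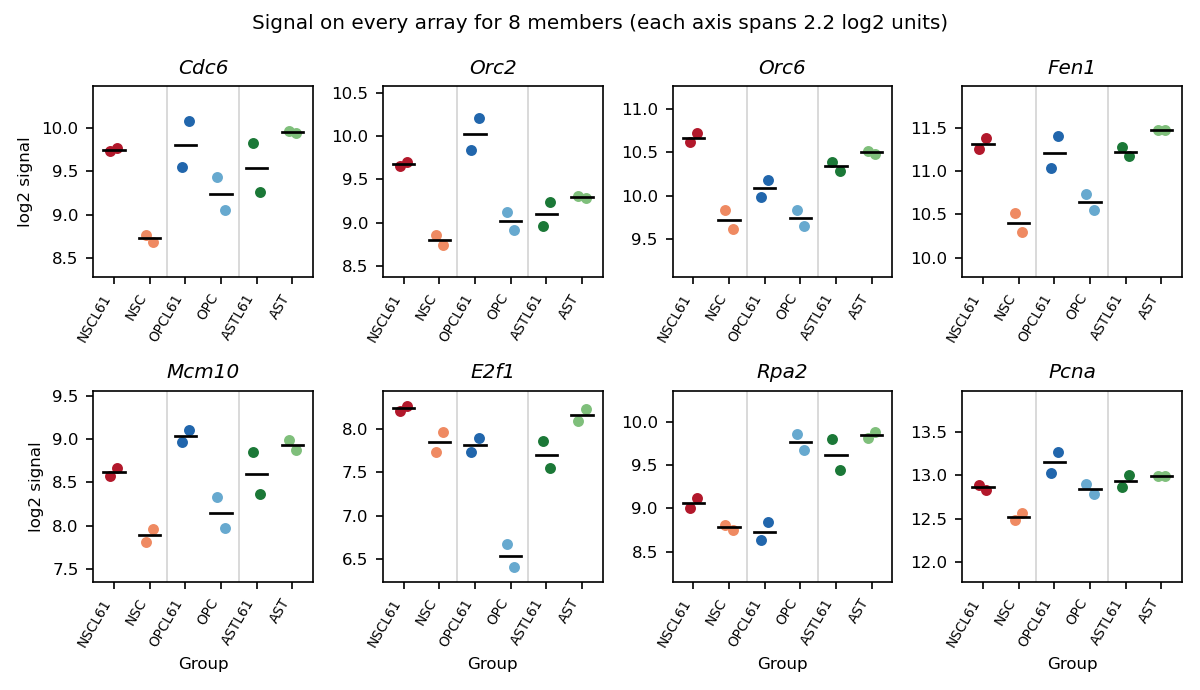
Log2 signal on every array (points) and group mean (bars) of Cdc6, Orc2, Orc6, Fen1, Mcm10, E2f1, Rpa2 and Pcna, each line left of its parent, with every y axis spanning the same number of log2 units. E2f1 is lowest in OPC, and Rpa2 in OPCL61 (8.63 and 8.84) lies with NSC (8.81 and 8.75) and below OPC (9.86 and 9.67).

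ASTL61 and AST could not be separated gene by gene. None of the 41 genes passed in limma's test, where 0.0234% of all genes did (3 genes), and 6 of the 41 had an unadjusted p under 0.05, against 7.33% of all genes. The values were one-sided: all 41 changes were below 0, between −0.66 and −0.05, with a median of −0.29 against 0.00 over all genes. Both ASTL61 arrays lay below both AST arrays for 25 genes, against 18.1% of all genes. These genes have 39 other probe sets above the low-signal limit in at least 1 group, and 37 changed in the same direction. The exceptions were a second probe set of Mcm10 (0.22) and of Rfc3 (0.02). The changes furthest from 0 were Tk1 at −0.66 ± 0.29, Pole at −0.63 ± 0.21 and Pole2 at −0.59 ± 0.23. Pole gave 8.85 and 8.16 in ASTL61 and 9.14 and 9.12 in AST (adjusted p = 0.53).

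This shift rested largely on 1 array. Without ASTL61 replicate 2 the median of the 41 changes was −0.10, and without ASTL61 replicate 1 it was −0.56, when Pole alone passed (−0.97, adjusted p = 0.0465). Cdc6 gave 9.83 and 9.26 in ASTL61 and 9.97 and 9.94 in AST, and E2f1 gave 7.86 and 7.55 in ASTL61 and 8.09 and 8.23 in AST. Mcm2 gave 10.89 and 10.49 in ASTL61 and 10.84 and 11.02 in AST, and Pcna, with 12.87 and 13.00 in ASTL61 and 12.99 and 12.99 in AST, had the change closest to 0 (−0.05 ± 0.12).

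The changes were then compared with each other, as differences of 2 changes in the same model. The change in ASTL61 was lower than that in NSCL61 for 17 of the 41 genes and higher for none, where 25.3% of all genes passed and 12.9% passed as lower. The median difference was −0.68, against −0.05 over all genes. Cdc6 (−1.43 ± 0.31, adjusted p = 0.00989), Pole (−1.42 ± 0.29, adjusted p = 0.007) and Fen1 (−1.16 ± 0.21, adjusted p = 0.00382) differed most, and 5 of 7 polymerase and primase genes and 4 of 6 licensing genes passed. Without any single array except ASTL61 replicate 1 the count was lower, between 6 and 11 (8 and 6 without NSCL61 replicates 1 and 2, 10 and 11 without those of NSC, 8 without ASTL61 replicate 2, and 8 and 8 without those of AST). It was 25 without ASTL61 replicate 1.

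Between OPCL61 and ASTL61 the changes differed for 12 of the 41 genes, 11 of them higher in OPCL61, where 35.4% of all genes passed and 17.1% passed as higher. E2f1 differed most (1.73 ± 0.21, adjusted p = 0.000333), then Pole (1.21 ± 0.29, adjusted p = 0.0106), Mcm10 (1.20 ± 0.25, adjusted p = 0.00548) and Orc2 (1.20 ± 0.22, adjusted p = 0.00251), and Rpa2 differed the other way (−0.80 ± 0.20, adjusted p = 0.0146). The count was 6 without OPCL61 replicate 2, 5 without OPC replicate 2, 19 and 7 without ASTL61 replicates 1 and 2, and 6 and 7 without those of AST. Between OPCL61 and NSCL61 only 4 of the 41 genes had changes that differed, where 37.9% of all genes passed. E2f1 was higher by 0.88 ± 0.21 (adjusted p = 0.0101), and Rpa2 (−1.31 ± 0.20, adjusted p = 0.000945), E2f2 (−0.86 ± 0.27, adjusted p = 0.0293) and Orc6 (−0.60 ± 0.18, adjusted p = 0.0268) were lower. That count was 2 without either NSCL61 array, NSC replicate 2, OPCL61 replicate 1 or OPC replicate 1, and Rpa2 and E2f1 passed in all 8 fits without 1 array.

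The lines resembled each other in these genes more than their parents did. The range of the 3 line means was smaller than the range of the 3 parental means for 36 of the 41 genes, or 87.8%, where 63% of all genes showed this. The median range was 0.58 among lines and 1.04 among parents for the 41 genes, and 0.52 among lines and 0.67 among parents for all genes. Pola2, an accessory subunit of polymerase alpha, had a range of 0.06 among lines and 1.01 among parents, Fen1 had 0.10 among lines and 1.07 among parents, and Cdc6 had 0.27 among lines and 1.23 among parents. The 5 exceptions, Mcm6, Orc2, Pola1, Prim2 and Rrm1, had ranges of 0.70 to 0.94 among lines. No test was made of the ranges.

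**Figure D5:**
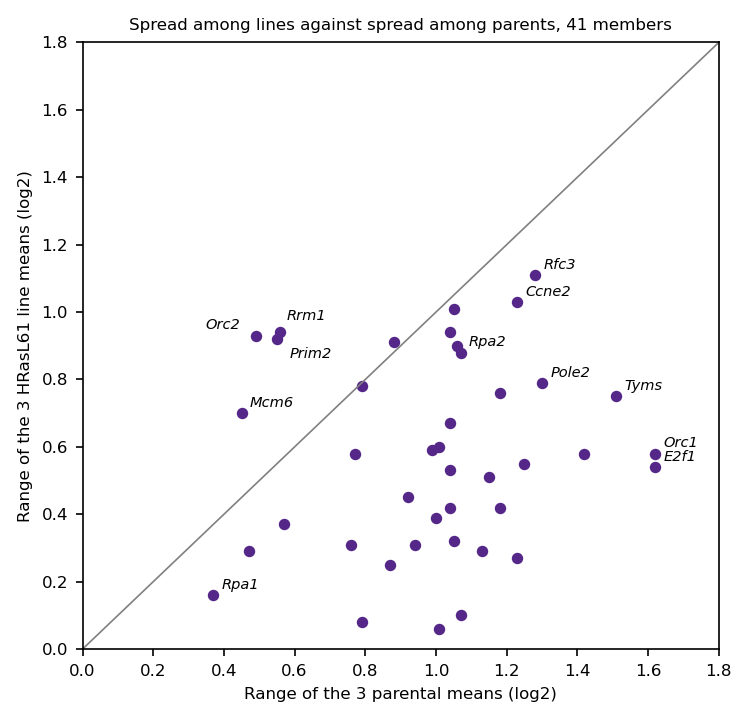
Each point is 1 of the 41 genes, with the range of the 3 parental means on the x axis and the range of the 3 line means on the y axis, both in log2 units, and the grey line where they are equal. Below the line lie 36 genes, and 5 lie above it (Mcm6, Orc2, Pola1, Prim2 and Rrm1).

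Between the lines, the share of the 41 genes that passed was near or below that of all genes. OPCL61 was higher than NSCL61 in 9 of the 41 genes and lower in 1, where 26.7% of all genes passed, with Rfc3 (1.11 ± 0.12, adjusted p = 0.000232), Lig1 (1.01 ± 0.21, adjusted p = 0.00785) and Pold1 (0.94 ± 0.17, adjusted p = 0.00371) highest and Orc6 lower (−0.58 ± 0.13, adjusted p = 0.00915). Rfc3 gave 9.84 and 9.79 in OPCL61 and 8.63 and 8.79 in NSCL61. That count was 4 and 6 without NSCL61 replicates 1 and 2. ASTL61 was higher than NSCL61 in 9 genes and lower in 2, where 32.7% of all genes passed, again with Rfc3 furthest (1.07 ± 0.12, adjusted p = 0.000204), and lower in Orc2 (−0.57 ± 0.15) and E2f1 (−0.54 ± 0.15). This count was 1 and 5 without NSCL61 replicates 1 and 2 and 5 without ASTL61 replicate 1. Tyms was 1 of the 9 genes higher in ASTL61 than in NSCL61, where it gave 4.78 and 5.09, below the low-signal limit. Its call is thus tied to that limit. OPCL61 was higher than ASTL61 in Orc2 (0.93 ± 0.15), Prim2 (0.92 ± 0.22), Pole (0.76 ± 0.21) and Mcm6 (0.70 ± 0.16) and lower in Ccne2 (−1.03 ± 0.25), Rpa2 (−0.88 ± 0.14) and Rfc1 (−0.50 ± 0.16), 7 genes where 36.6% of all genes passed. It was 12 genes without ASTL61 replicate 1.

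By group means, AST was the highest of the 6 groups for 23 of the 41 genes, OPCL61 for 12 and NSCL61 and OPC for 3 each. NSC was the lowest for 30, NSCL61 and OPC for 4 each and OPCL61 for 3. The genes highest in NSCL61 were Orc6, Ccne1 and E2f1, and none of the 41 was highest in NSC or ASTL61. Neighbours in this order often lay within the spread of their arrays: Fen1 averaged 11.31 ± 0.09 in NSCL61, 11.21 ± 0.26 in OPCL61 and 11.22 ± 0.08 in ASTL61 (SD, n = 2 each).

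Further genes of replication and the G1/S step were read from a second list, of which 52 of 55 were tested. Of these, 17 rose and 1 fell in NSCL61 against NSC, 18 in all, with a median change of 0.28. The share that passed was near that of all genes, of which 20.7% passed as higher, 17.1% as lower and 37.8% in either direction. E2f8, an atypical E2F that represses E2F targets, gave 9.49 and 9.44 in NSCL61 and 6.97 and 7.19 in NSC (2.38 ± 0.25, adjusted p = 9.08e-05). Dna2, a nuclease and helicase of Okazaki fragment processing, gave 7.71 and 7.70 in NSCL61 and 6.54 and 6.34 in NSC (1.27 ± 0.20, adjusted p = 0.000935), Shmt1, a folate enzyme, rose by 0.73 ± 0.12 and Cdc25a, a phosphatase that activates cyclin-dependent kinases, by 0.70 ± 0.12. For E2f8 and Dna2 the groups were far apart relative to their spread.

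In OPCL61 10 genes of that list rose and 4 fell against OPC, 14 in all, with a median change of 0.11. The share that passed was below that of all genes, of which 24.5% passed as higher, 23.9% as lower and 48.5% in either direction. Orc4, a further origin recognition subunit, gave 10.01 and 10.41 in OPCL61 and 8.52 and 8.30 in OPC (1.80 ± 0.14, adjusted p = 9.36e-06), so that Orc1, Orc2, Orc4 and Orc6 passed as higher. The other origin recognition subunits of the list, named after their values were seen, did not pass: Orc3 had a change of −0.30 ± 0.12 (adjusted p = 0.0611), and Orc5 had a change of 0.10 ± 0.16. Slbp, which binds histone mRNA, rose by 0.66 ± 0.13. Skp2, an F-box protein that marks cell cycle inhibitors for degradation, gave 8.74 and 9.02 in OPCL61 and 10.11 and 9.90 in OPC (−1.13 ± 0.16, adjusted p = 0.000297), and Pole3, a small subunit of polymerase epsilon, changed by −0.84 ± 0.16. In ASTL61 none of the 52 passed against AST, where 0.0234% of all genes did. Of the 52, 10 had an unadjusted p under 0.05, against 7.33% of all genes, and the median was −0.27. Among the parents, 35 rose in AST against NSC and none fell, where 15.4% of all genes passed as higher and 15% as lower. In OPC against NSC 21 rose and 1 fell, where 27.2% passed as higher and 24.3% as lower. In OPC against AST 3 rose and 16 fell, where 26.1% passed as higher and 25.6% as lower. In the last of these Hells, a chromatin remodeller, changed by −2.03 ± 0.36 and Mybl2, a cell cycle transcription factor, by −1.88 ± 0.32.

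Mitosis and G2/M genes followed the replication genes in part. Of 19 tested, 6 rose and none fell in NSCL61 against NSC, where 20.7% of all genes passed as higher and 37.8% in either direction. Cenpf, a kinetochore protein, changed by 0.77 ± 0.18 and Cdk1, the mitotic kinase, by 0.63 ± 0.15. Mki67, the proliferation marker Ki-67, gave 9.92 and 9.98 in NSCL61 and 9.90 and 9.84 in NSC (0.08 ± 0.24, adjusted p = 0.829). In OPCL61 4 rose and 2 fell against OPC, where 24.5% of all genes passed as higher, 23.9% as lower and 48.5% in either direction. In both comparisons the share of the 19 that passed was below that of all genes. The mitotic cyclin Ccnb2 changed by 2.15 ± 0.43 in OPCL61 and the kinase Aurka by 0.90 ± 0.19. Mki67, with 10.34 and 10.51 in OPCL61 and 11.20 and 11.05 in OPC, changed by −0.70 ± 0.24 (adjusted p = 0.038). Ccnb2 gave 8.83 and 7.19 on the OPC arrays, which were far apart. In ASTL61 none of the 19 passed in limma's test or had an unadjusted p under 0.05, where 0.0234% and 7.33% of all genes did. All 19 changes were below 0 with a median of −0.21. Of the parents, AST had 8 of the 19 higher than NSC and none lower, where 15.4% of all genes passed as higher and 15% as lower. OPC had 10 higher and 1 lower than NSC, where 27.2% of all genes passed as higher and 24.3% as lower. Mki67 was among the 10, at 1.26 ± 0.24. Against AST, OPC had 1 of the 19 higher and 2 lower, where 26.1% of all genes passed as higher and 25.6% as lower.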

How the data were processed

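The authors deposited 1 log2 signal for each probe set and array. How it was background-corrected, summarised and normalised was not stated in the labels. Total RNA (5 µg) was labelled with biotin in a one-cycle reaction, per the labels' protocols. Array medians lay between 5.157 and 5.211, so values were used as deposited. Of 45101 probe sets, 34958 have 1 gene symbol in the platform annotation and 932 have several, which were not used. Genes needed a mean above 5.183, the median of all values, in at least 1 group, and were read from the probe set of highest mean, which left 12835 genes.

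All 12 arrays were fitted as 6 group means in limma 3.58.1 (R 4.3.3), with 6 residual and 9.302 total degrees of freedom. Contrasts gave 2-sided p-values, adjusted by the Benjamini-Hochberg method over the 12835 genes, with a threshold of 0.05. SE is the moderated standard error. Because there are 2 arrays in a group, their number limits the precision. The steps were tested on simulated data. The 41 genes and the lists were chosen with earlier results of these data known. All 41 genes could be named, with up to 4 per comparison of the other replication genes that passed, by smallest p, and Mki67 with up to 2 mitosis genes by smallest p. Values on every array are given for the 6 largest changes that passed in each line, for Pcna, Mcm2, Cdc6, Ccne1 and E2f1, and for some further genes chosen after their values were seen. Alternatives are described in the closing section. Of the 41 probe sets, 5 have names ending in _x_at, so may also detect related sequences (Mcm5, Pold1, Fen1, Rrm2 and Ccne1). Promoter sequences are RefSeq's, and 8 of the 41 genes had no match in that table.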

Additional observations from a re-analysis of the deposited data

Results flagged for a closer look

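For these genes the change of a line against its parent differed between cell types in limma's test of the difference of 2 log2 changes, with adjusted p under 0.05. Values are the first change minus the second.

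For OPCL61 over OPC minus NSCL61 over NSC, the difference was −0.60 for Orc6, −1.31 for Rpa2, 0.88 for E2f1 and −0.86 for E2f2. For Rpa2 the OPCL61 change was below 0 and the NSCL61 change above it.

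For ASTL61 over AST minus NSCL61 over NSC, all 17 differences were below 0. In the helicase and licensing genes they were −0.67 for Mcm4, −1.05 for Mcm10, −1.43 for Cdc6, −0.76 for Cdt1, −1.07 for Orc2, −1.10 for Orc6 and −0.94 for Cdc45. In the polymerase, primase and clamp loader genes they were −0.64 for Rfc5, −0.96 for Pola2, −1.42 for Pole, −1.11 for Pole2, −0.98 for Prim1 and −1.03 for Prim2. The other 4 were −1.16 for Fen1, −1.12 for Rrm2, −1.06 for Ccne1 and −0.85 for E2f1. In each of the 17 the ASTL61 change itself had not passed the test.

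For OPCL61 over OPC minus ASTL61 over AST, the differences were 0.83 for Mcm3, 1.20 for Mcm10, 0.99 for Cdc6, 1.04 for Orc1, 1.20 for Orc2, 0.59 for Rfc5, 1.21 for Pole, 1.12 for Pole2, 1.05 for Prim2, 0.82 for Fen1 and 1.73 for E2f1, and −0.80 for Rpa2. The 3 contrasts share arrays with one another, so their lists of genes are not independent. No group has enough arrays for a test of single outlying samples.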

How the results depend on the processing

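The analysis was repeated under 9 other settings. The values were quantile-normalised or each array was median-centred. The low-signal limit was dropped or raised to the 75th percentile, which left 39 of the 41 genes, without Tyms and E2f2. Probe sets of a gene were averaged. The fit was given a replicate block, a robust trended prior or array weights, or was made on only the arrays compared. No value reversed. The number of the 41 genes called was 13 to 17 in NSCL61 (14 as reported), 7 to 12 in OPCL61 (8) and 32 to 36 in AST over NSC (35). It was 0 in ASTL61 against AST under all 9 settings. Between OPCL61 and ASTL61 it was 2 (7 as reported) in a model of only the arrays compared. Of the 14 genes in NSCL61, all but Mcm7, Mcm10 and Pcna passed under all 9 settings, and of the 8 in OPCL61 only Mcm10, Orc2, Rpa2 and E2f1 did.

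Same-numbered arrays were not treated as pairs: replicate differences correlated between groups at −0.20 to 0.10, and the labels give no shared origin. Whether same-numbered arrays shared a batch was not tested. With the replicate block, 13 genes were called in NSCL61, 9 in OPCL61, 0 in ASTL61, 35 in AST over NSC, 21 in OPC over NSC and 18 in OPC over AST. Among the line comparisons it gave 12, 10 and 10, and for the differences of changes 4, 17 and 12.

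Leaving out 1 array at a time gave 4 to 7 genes in NSCL61, 4 to 11 in OPCL61, 0 to 1 in ASTL61, 12 to 21 in OPC over NSC, 25 to 28 in AST over NSC and 11 to 19 in OPC over AST. Among the lines it gave 4 to 9 for OPCL61 over NSCL61, 1 to 16 for ASTL61 over NSCL61 and 5 to 12 for OPCL61 over ASTL61. For the differences of changes it gave 2 to 5 (OPCL61 and NSCL61), 6 to 25 (ASTL61 and NSCL61) and 5 to 19 (OPCL61 and ASTL61). Over all genes, the count in ASTL61 against AST was 3 as reported, 5 with array weights, 0 in a model of only the arrays compared and 0 to 102 without 1 array. It was 4702 in OPCL61 over ASTL61 as reported and 2598 in a model of only the arrays compared. Without NSCL61 replicate 1 it was 3012 in NSCL61 over NSC (4851 as reported), 1798 in OPCL61 over NSCL61 (3423), 2433 in ASTL61 over NSCL61 (4197) and 2023 for the difference between the ASTL61 and NSCL61 changes (3252), and without AST replicate 2 it was 2123 in AST over NSC (3904). The lone array of a group is then assumed to vary like the others, and having fewer arrays by itself tends to lower these counts.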
